A study of Mus musculus with 6 samples.

Results

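The cytosolic ribosomal protein genes encode the proteins of the large (Rpl) and small (Rps) ribosomal subunits. They were chosen by symbol, as Rpl or Rps followed by a number and at most 1 of the letters a, l, x or y, together with Rplp0, Rplp1, Rplp2 and Rpsa. This rule uses no measured value and gave 83 of the 45777 genes in the data, 51 of them Rpl and 32 Rps, with 161 annotated transcripts. The RNA came from splenic CD4+ T cells of female C57BL/6 mice aged 7 weeks, an inbred strain with no treatment named, which were separated by the surface protein Lrig1 into CD4+Lrig1+ and CD4+Lrig1- populations and sequenced in bulk. The data analysed here were 2 CD4+Lrig1+ and 2 CD4+Lrig1- libraries, held in 2 deposited tables with 1 library of each group in each table, called set 1 and set 2 here. The sources used here do not say how many mice gave each library or what separates the sets, so p-values measure only the spread between these libraries, which may be technical.

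Each ribosome joins ribosomal RNA to one copy of nearly every ribosomal protein, and the genes of these proteins are therefore expressed together and at high levels in almost every cell. Their mRNAs begin with a 5′ terminal oligopyrimidine (TOP) tract, a C at the first transcribed base followed by a run of C and T, through which mTORC1 and the RNA-binding protein Larp1 control their translation and stability. Resting lymphocytes keep few ribosomes and build more of them on activation, with Myc and mTORC1 as known drivers. A few symbols in the family belong to paralogs with restricted expression, such as Rpl3l of striated muscle and Rpl10l and Rpl39l of the male germ line.

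A minority of the annotated start sites carry this tract exactly at the start. Promoter windows of RefSeq (build GRCm38.p6) were at hand for 61 of the 83 genes, in 73 windows. A C exactly at the annotated start followed by 4 letters that are each C or T was found on the coding strand in 14 windows (19.2%) of 14 genes, against 2.51% of the 32851 windows of all genes. When the C could lie within 5 bases of the annotated start, these shares were 42.5% and 18.3%. The letters CCGGAA, on either strand, stood in 46.6% of the ribosomal protein windows and in 14.9% of all windows of the same length. These full windows are longer than the stretches printed below. The stretches are shown because they hold the tract. Each spans the 30 bases before the annotated start and the first 30 transcribed bases, with the tract in capitals. Rps6, the small-subunit protein that S6 kinases phosphorylate, is given at chr4:86857338-86857397 on the minus strand. Rpl35 is at chr2:39005102-39005161 (minus), Rpl28 at chr7:4792935-4792994 (plus), Rps18 at chr17:33955636-33955695 (minus), Rps27 at chr3:90213619-90213678 (minus) and Rplp2 at chr7:141447621-141447680 (plus).
Rps6: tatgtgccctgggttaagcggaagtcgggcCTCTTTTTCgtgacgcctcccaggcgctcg
Rpl35: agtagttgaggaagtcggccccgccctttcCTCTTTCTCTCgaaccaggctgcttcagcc
Rpl28: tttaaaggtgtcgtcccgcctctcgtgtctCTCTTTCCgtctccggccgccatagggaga
Rps18: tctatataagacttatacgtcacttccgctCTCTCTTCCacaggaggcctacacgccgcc
Rps27: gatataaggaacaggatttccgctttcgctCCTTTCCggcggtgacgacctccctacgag
Rplp2: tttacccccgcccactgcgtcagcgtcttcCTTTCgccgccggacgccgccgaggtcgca

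The tracts differed in length, from 5 bases in Rplp2 to 11 in Rpl35, and each was flanked by a different sequence. A match of letters at an annotated start is a description and no measurement of where transcription began.

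The libraries held 44865070 to 59977951 estimated counts, and 81 of the 83 genes had counts in each library. Lrig1 itself had 221 and 129 CPM (counts scaled to library size by TMM, sets 1 and 2) in CD4+Lrig1+ T cells against 75.4 and 36.7 in CD4+Lrig1- T cells, in the direction of the labels in both sets. Foxp3, the defining factor of regulatory T cells, had 589 and 615 CPM in the CD4+Lrig1+ libraries, against 48.9 and 30.7 in the CD4+Lrig1- libraries. The 8 CD4 T cell markers summed to 4983 (CD4+Lrig1+) and 5527 CPM (CD4+Lrig1-) in set 1 and to 7224 and 8265 in set 2. Markers of other spleen cells also had higher sums in set 2. The 8 B cell markers summed to 87.4 (CD4+Lrig1+) and 67.3 CPM (CD4+Lrig1-) in set 1 and to 364 and 708 in set 2, and no such marker was at 0 in all libraries. In the same order, the 8 myeloid markers summed to 46.1 and 56.1 and then 216 and 266 CPM. The 4 erythroid markers summed to 5.90 and 6.10 and then 52.3 and 59.4. For the 2 CD8 T cell markers the sums were 14.1 and 19.5 and then 51.6 and 97.3. For the 5 NK markers they were 31.6 and 28.8 and then 69.5 and 93.4. Of these, Eomes had 24.1 and 4.20 and then 41.3 and 9.18 CPM, while the other 4 were lower in CD4+Lrig1+ libraries in both sets. Between sets, edgeR called 6 of 8 B cell, 5 of 8 myeloid, 4 of 4 erythroid and 2 of 2 CD8 T cell markers higher in set 2. It also called 1 of 5 NK and 4 of 8 CD4 T cell markers higher. It called 0 markers of these lists lower. Of all genes, 16.3% were called higher and 18.8% lower. In bulk RNA, a different share of cells of one type and a different amount of RNA per cell cannot be told apart.

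The first measure was how much of each library the ribosomal protein genes took up. In set 1 they held 6.01% of the estimated counts of CD4+Lrig1+ T cells (Wilson 95% interval 6.00% to 6.01%) and 5.69% of those of CD4+Lrig1- T cells (5.68% to 5.70%). In set 2 they held 14.5% (14.5% to 14.5%) and 16.1% (16.1% to 16.1%). These intervals cover counting error only. The sets stood far apart and the Lrig1 groups lay close together within each of them. The share was 10.3% ± 6.02 (SD, n = 2) with Lrig1 and 10.9% ± 7.35 (SD, n = 2) without it, an exact two-sided permutation test of the groups gave p = 1, and the smallest p that 2 libraries against 2 allow is 0.333. Set 2 over set 1 was a ratio of 2.62 in the mean share (2.42 for CD4+Lrig1+ libraries, 2.83 for CD4+Lrig1- libraries), with the smallest permutation p of 0.333. In TPM (transcript abundance scaled by length and then to the same total in each library), where short mRNAs weigh more, the shares were 17.4% and 16.9% in set 1 and 29.3% and 32.1% in set 2, a ratio of 1.79 between sets.

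**Figure D1:**
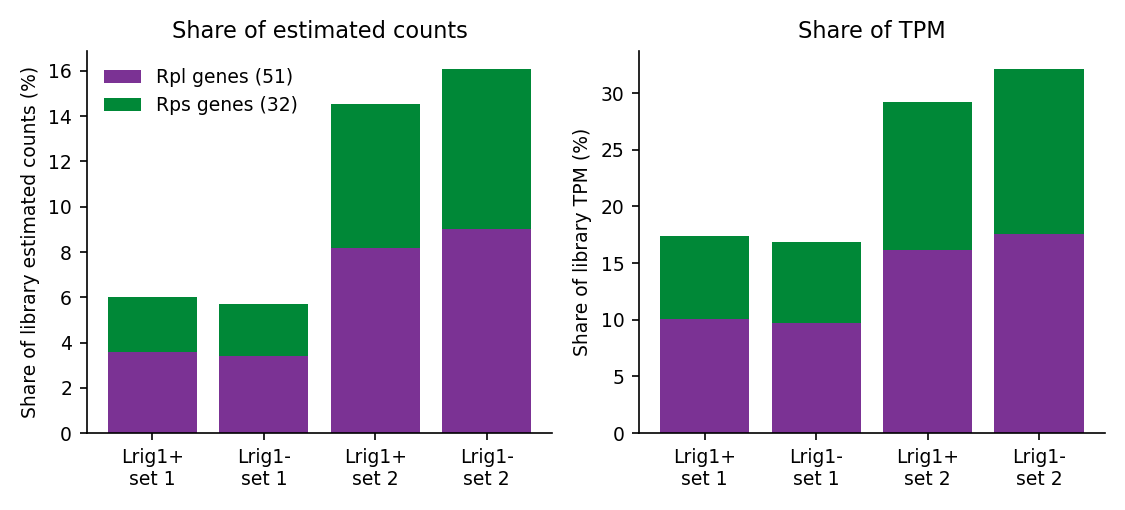
Share (%) of each library taken by ribosomal protein genes, by estimated counts (left axis panel) and by TPM (right panel), with Rpl and Rps genes stacked, 1 bar a library. By counts the bars reach 6.01% and 5.69% in set 1 and 14.5% and 16.1% in set 2, with CD4+Lrig1+ above CD4+Lrig1- in set 1 and below it in set 2.

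Both subunits contributed to these shares. Rpl genes took 3.58% and 3.39% of counts in set 1 (CD4+Lrig1+, then CD4+Lrig1-) and 8.19% and 9.02% in set 2. Rps genes took 2.43% and 2.29% in set 1 and 6.33% and 7.06% in set 2. The set ratio was 2.47 for Rpl and 2.84 for Rps genes. Among the 50 genes with most counts, ribosomal protein genes numbered 8 and 7 in set 1 and 26 and 27 in set 2.

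Levels of single genes are compared in TPM, since it is scaled by length. Over the 76 genes that are neither paralogs nor typed as other than mRNA, the median level was 2227 and 2067 TPM in set 1 (CD4+Lrig1+, then CD4+Lrig1-) and 3770 and 3930 TPM in set 2. Rplp1, a protein of the large-subunit stalk that recruits translation factors, led in set 1 with 5993 and 5589 TPM. Rpl12, at the base of that stalk, led in set 2 with 8678 and 11064 TPM. The mRNAs for proteins of the stalk were not at one level. Rplp0, its anchor, had 4172 and 4304 TPM in set 1 and 5549 and 6520 TPM in set 2, while Rplp2 had 3499 and 3237 and then 5277 and 5452 TPM. Rpsa, the small-subunit protein also known as the laminin receptor, had 3460 and 3135 TPM in set 1 and 4966 and 4853 in set 2. The lowest levels were at 300.2 TPM (Rpl22, CD4+Lrig1+ set 1), 480 TPM (Rpl22, CD4+Lrig1+ set 2), 253 TPM (Rps15a, CD4+Lrig1- set 1) and 452 TPM (Rpl22, CD4+Lrig1- set 2). Rps15a is annotated with a single transcript of 5136 bases, against a median of 734 bases over the 81 genes with counts, and the scaling divides by that length. In counts it was no low gene, with 627 and 506 CPM in set 1 and 2261 and 2397 CPM in set 2.

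The paralogs were far below the ubiquitous genes. Rpl3l and Rpl10l had 0 counts in all 4 libraries, which allows up to 0.0669 CPM in the smallest library at a floor of 3 counts per library, while Rpl3 stood at 2478 to 3543 and Rpl10 at 2336 to 4437 TPM. Rps27l, a p53-inducible paralog of Rps27, had 45.0 and 34.6 TPM in set 1 and 121 and 88.0 TPM in set 2 (CD4+Lrig1+, then CD4+Lrig1-). This was 1.15%, 0.812%, 1.40% and 0.902% of the TPM of Rps27. Rps4l, a paralog of the X-linked Rps4x, had 125 and 41 counts in set 1 and 237 and 105 in set 2, and its TPM was from 0.0399% to 0.194% of the level of Rps4x. Rpl39l had 16 and 8 counts in set 1 and 74 and 60 in set 2, or 0.924, 0.469, 2.43 and 2.08 TPM, while Rpl39, a small protein of the exit tunnel, had 1173, 1052, 3055 and 3184 TPM. Rpl32l was as low, at 0.629 to 1.49 TPM. The genome also holds many processed copies of these genes. The data list 224 ribosomal protein pseudogenes, 41 of them with 0 counts in all libraries, and together they took 0.0604% to 0.174% of the counts, so how reads of near-identical copies were divided is uncertain for the parent genes and the copies alike.

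**Figure D2:**
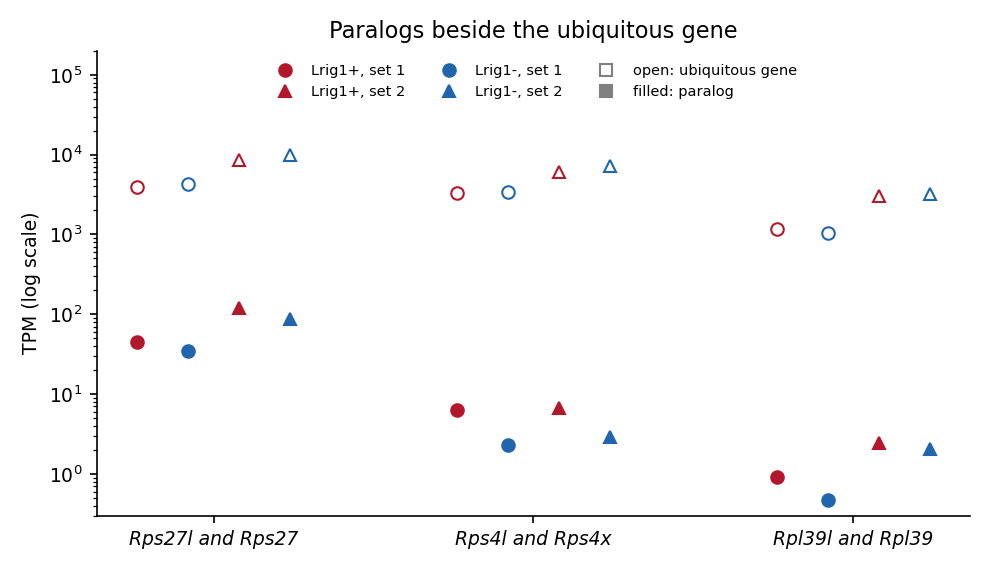
TPM on a log axis of 3 paralogs (filled) and the ubiquitous gene each resembles (open), 1 symbol a library, with circles for set 1 and triangles for set 2. All 3 paralogs were higher in CD4+Lrig1+ (red) than in CD4+Lrig1- (blue) libraries within each set, Rpl39l on 8 to 74 counts. Every paralog lay under 2% of its ubiquitous gene.

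The question put to the design was whether ribosomal protein genes differ between CD4+Lrig1+ and CD4+Lrig1- T cells. Over all 4 libraries no ribosomal protein gene passed the test in either direction. When 16123 genes were tested by the quasi-likelihood method of edgeR and adjusted by Benjamini-Hochberg, 0 of the 81 genes tested were called higher and 0 lower, against 0% of all genes in each direction. The smallest adjusted p was 1.00, and 0 had an unadjusted p under 0.05. The Wald test of DESeq2 and limma on log2 FPKM also called 0 of them, although DESeq2 called 275 genes higher and 43 lower over the whole table. Their log2 fold changes ran from -0.43 (Rpl5) to 1.22 (Rps4l) with a median of -0.13, beside -0.04 over all genes. Their standard errors ran from 0.64 to 1.30, as the spread within a group here includes the difference between the sets.

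With the set of each library as a term in the model, 2 ribosomal protein genes were higher in CD4+Lrig1+ T cells, both of them paralogs. These were Rps4l and Rps27l, or 2.47% of the 81 genes, against 14.6% of all genes called higher, and 0 were lower, against 12.8% of all genes. Rps4l had 2.40 and 4.13 CPM in CD4+Lrig1+ libraries (set 1, then set 2) and 0.856 and 1.94 CPM in CD4+Lrig1- libraries. In the RefSeq genes of GRCm38 it lies on chromosome 6 from 148354656 to 148355596 and is typed as a miscellaneous RNA. The groups did not overlap, and the log2 fold change was 1.27 (SE 0.28, adjusted p = 0.0148). It was the only ribosomal protein gene with both CD4+Lrig1+ libraries above both CD4+Lrig1- libraries, an arrangement seen in 14.3% of all genes. For 0 of the 81 genes both CD4+Lrig1+ libraries lay below, against 11.8% of all genes. Rps27l (chromosome 9 of the same annotation, 66944624 to 66949522) had 9.40 and 7.27 CPM in set 1 (CD4+Lrig1+, then CD4+Lrig1-) and 40.5 and 32.1 CPM in set 2. It was higher in CD4+Lrig1+ T cells within each set while the groups overlapped across sets, with a log2 fold change of 0.35 (SE 0.10, adjusted p = 0.0319). The other 79 genes were not called in either direction.

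Among genes of the ubiquitous ribosome, the largest differences in this model did not pass the adjustment. Rpl5, which carries the 5S rRNA into the large subunit and binds Mdm2 when free, had 1396 and 1584 CPM in set 1 (CD4+Lrig1+, then CD4+Lrig1-) and 3298 and 4742 CPM in set 2. Its log2 fold change was -0.35 (SE 0.14, adjusted p = 0.0971). Rpl41, a very short protein of the large subunit, had 287 and 217 CPM in set 1 and 1185 and 1076 CPM in set 2, with a log2 fold change of 0.27 (SE 0.11, adjusted p = 0.102). Together with both paralogs these were the 4 genes at an unadjusted p under 0.05. Rps24, a small-subunit protein mutated in Diamond-Blackfan anaemia, followed with -0.31 (SE 0.14, adjusted p = 0.142). Over the 76 ubiquitous genes the values lay between -0.35 and 0.27 with a median of -0.07, and their standard errors ran from 0.096 to 0.15.

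Within each set, the median ratio of the ribosomal protein genes differed from that of all genes, upward in set 1 and downward in set 2. In set 1 the log2 ratio of CPM, with CD4+Lrig1+ divided by CD4+Lrig1-, had a median of 0.11 (quartiles -0.01 and 0.19), with 59 genes above 0 and 22 below, beside a median of 0.01 over all genes. In set 2 the median was -0.20 (quartiles -0.32 and -0.10), with 7 genes above 0 and 74 below, beside -0.06 over all genes. A ratio above 0 in set 1 and below 0 in set 2 was found for 52 of the 81 genes (64.2%), against 14.5% of all genes. The ratio was above 0 in both sets for 7 genes, against 36.5% of all genes, and below 0 in both for 22, against 41.3%. It was lower in set 2 than in set 1 for all 81 genes, against 64.4% of all genes, and by a median of -0.32 with a range from -0.95 (Rpl32l) to -0.03 (Rps27l).

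With 1 library of each group in a set, neither ratio nor the difference between them has a replicate check, and the difference was not tested. Another scaling moved the zero line: with the size factors of DESeq2 49 genes were above 0 in set 1 and 7 in set 2, with library totals alone 63 and 19, and the pattern of above 0 and then below 0 held for 42 and 44 genes. The B cell markers summed to 87.4 against 67.3 CPM (CD4+Lrig1+, then CD4+Lrig1-) in set 1 and to 364 against 708 in set 2. Of the 8, 2 had a log2 ratio above 0 in set 1 and below 0 in set 2, and 6 were below 0 in both sets, with a median of -0.08 in set 1 and -1.09 in set 2. The ribosomal RNA gene Rn18s-rs5 had 0.391% over 0.133% of counts in set 1 and 0.126% over 0.287% in set 2. Their part in the result was not tested.

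**Figure D3:**
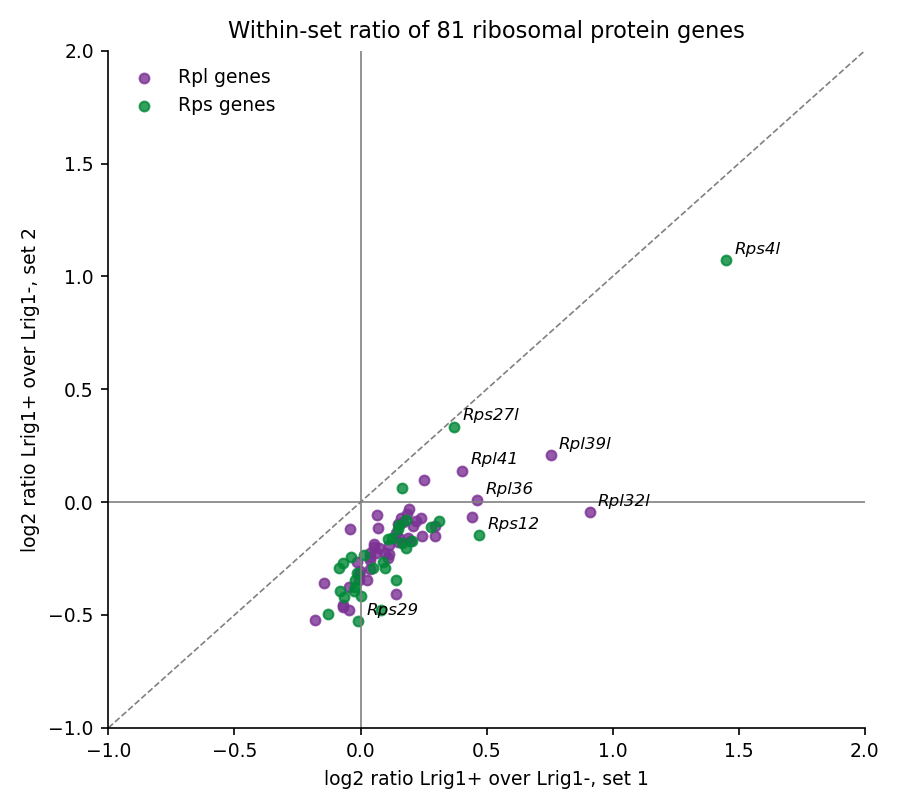
Log2 ratio of CPM, with CD4+Lrig1+ divided by CD4+Lrig1-, in set 1 (horizontal) and set 2 (vertical) for the 81 ribosomal protein genes tested, 1 point a gene, purple for Rpl and green for Rps, with equal ratios on the dashed line. All 81 points lie below the dashed line and 52 lie in the lower right quadrant, with Rps4l far from the rest.

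The order of the genes by this ratio was much the same in both sets. Spearman's rho between the ratios of set 1 and set 2 was 0.84 across the 81 genes, and also 0.84 across the 76 ubiquitous genes. Genes are not independent replicates, and the ratios within a set share both libraries, their depth and their scaling. Rpl5 stood at the low end with log2 ratios of -0.18 and -0.52 (set 1, then set 2), near Rps24 with -0.13 and -0.49. Rpl12 and Rpl14, both of the large subunit, each had -0.07 and -0.46. At the high end, Rpl41 had 0.40 and 0.14 and Rpl36, another large-subunit protein, 0.46 and 0.01. The paralogs Rps4l (1.45 and 1.07), Rps27l (0.37 and 0.33) and Rpl39l (0.75 and 0.21) stood above 0 in both sets. Others set apart from the ubiquitous genes did not: Rpl32l had 0.91 and -0.04, and Rpl6l had -0.04 and -0.12. Rps12, Rps16 and Rps29, proteins of the small subunit, and Rplp1 were among the genes that moved most between sets. Rps12 had 564 and 407 CPM in set 1 (CD4+Lrig1+, then CD4+Lrig1-) and 1601 and 1771 CPM in set 2, so that its log2 ratio was 0.47 and then -0.15. Rplp1 went from 0.14 to -0.40, Rps16 from 0.08 to -0.48 and Rps29 from -0.01 to -0.53.

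The second axis of the data was the difference between the sets, and here nearly every ribosomal protein gene was higher in set 2. In edgeR's quasi-likelihood test without a term for Lrig1, 79 of the 81 genes (97.5%) were called higher in set 2, against 16.3% of all genes, and 0 were called lower, against 18.8%. The median log2 fold change was 1.60 with quartiles of 1.39 and 1.80, beside -0.02 over all genes. In linear terms the changes of the 76 ubiquitous genes ran from 1.91-fold for Rpl4 to 4.97-fold for Rps14. With the Lrig1 group as a term 80 genes were called higher, against 32.1% of all genes, and 0 lower, against 34.5%. Both set 2 libraries lay above both set 1 libraries for 80 of the 81 genes, against 34.4% of all genes.

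The exceptions were low paralogs. Rps4l had 2.40 and 0.856 CPM in set 1 and 4.13 and 1.94 in set 2, so the sets overlapped, and its log2 difference was 0.90 (adjusted p = 0.395). It passed the test with the Lrig1 group as a term. Rpl32l had 0.308 and 0.146 CPM in set 1 and 0.592 and 0.611 in set 2, and its log2 difference of 1.39 was not called (adjusted p = 0.140, and 0.0782 with the Lrig1 group as a term).

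The size of the difference varied among the genes. Rps14, a small-subunit protein at the mRNA exit, had 569 and 503 CPM in set 1 (CD4+Lrig1+, then CD4+Lrig1-) and 2475 and 2853 CPM in set 2. Its log2 difference was 2.31 (SE 0.15, adjusted p = 0.0105). Rpl39 (2.28), Rpl37a (2.21), Rps19 (2.20) and Rpl41 (2.17) were next among the ubiquitous genes. Rps19 is the gene most often mutated in Diamond-Blackfan anaemia. At the other end, Rpl4, a large-subunit protein that lines the exit tunnel, had 1978 and 1926 CPM in set 1 and 3446 and 4025 CPM in set 2, a log2 difference of 0.94 (SE 0.14, adjusted p = 0.0181). Rps26 (1.12), Rpl13 (1.17) and Rpl3 (1.27) were also low in this order. Rps genes had a median of 1.56 in CD4+Lrig1+ and 1.91 in CD4+Lrig1- libraries, and Rpl genes 1.39 and 1.70, a difference between subunits that was not tested. Every gene had a larger difference in CD4+Lrig1- (median 1.76) than in CD4+Lrig1+ libraries (median 1.46), which restates the ratios within the sets. The genes with the pyrimidine tract exactly at an annotated start had a median of 1.72 (n = 14), beside 1.63 for those with a window and no such match (n = 45).

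**Figure D4:**
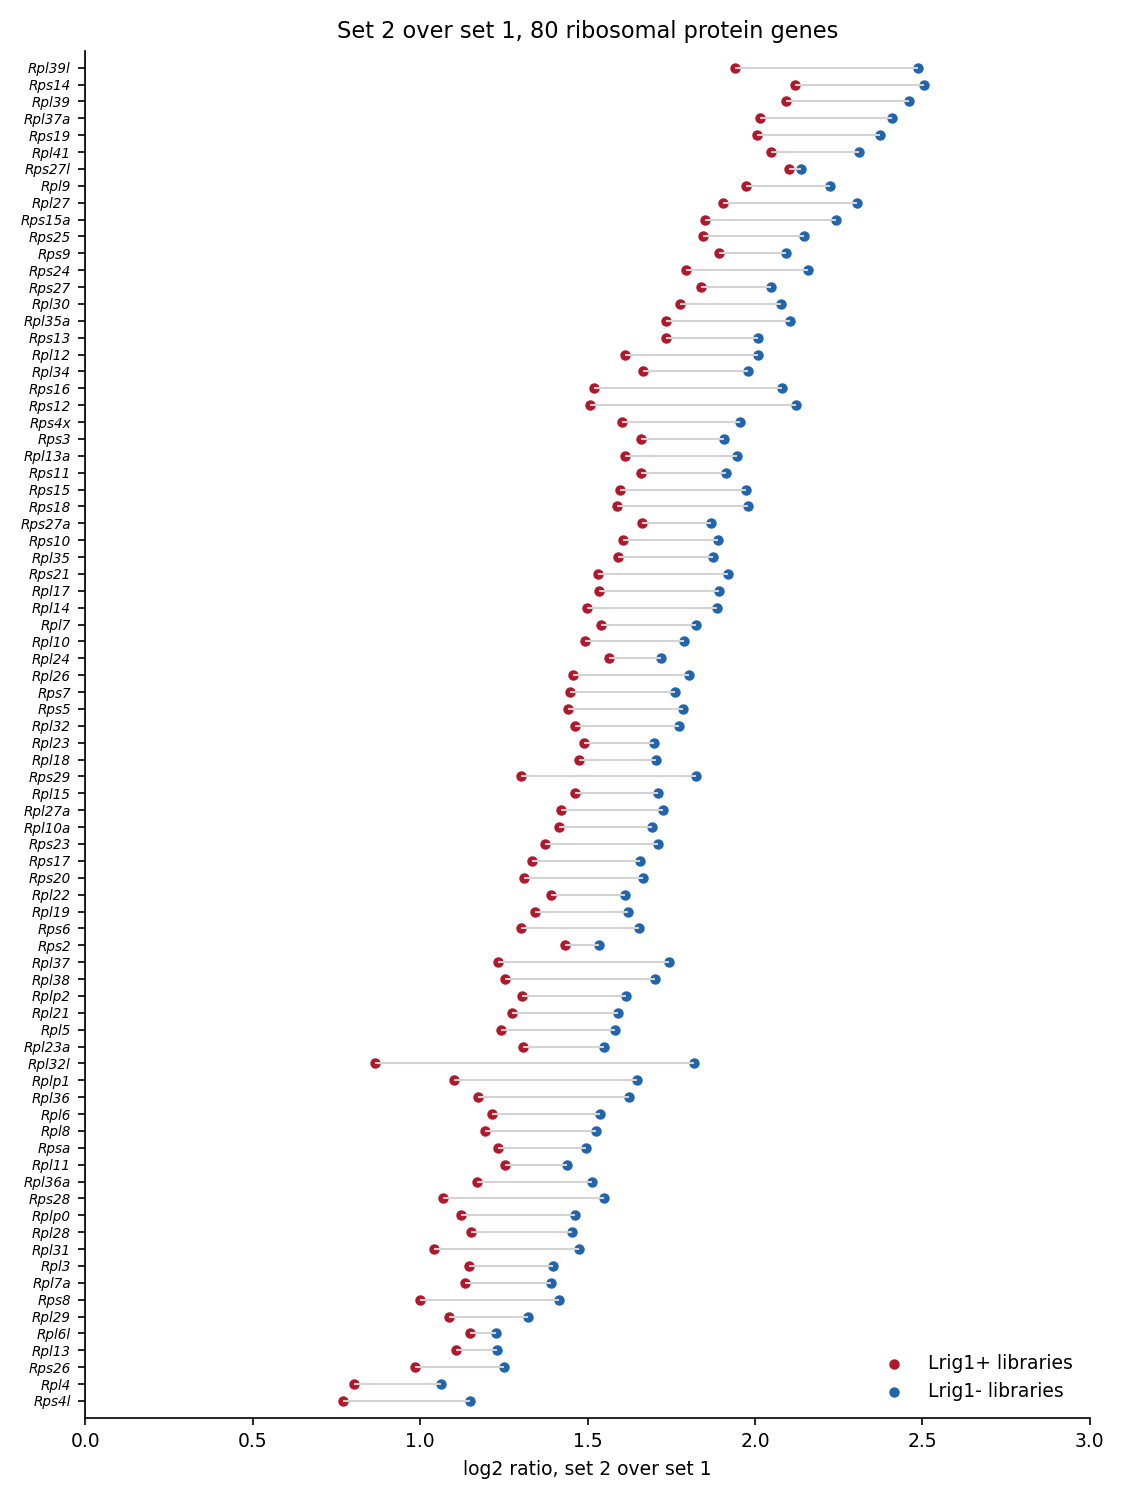
Log2 ratio of set 2 over set 1 for 80 of the 81 ribosomal protein genes tested, red for the CD4+Lrig1+ and blue for the CD4+Lrig1- libraries, 1 point a pair of libraries, ordered by the fitted difference. All points lie above 0, from 0.77 (Rps4l) to 2.50 (Rps14), and the CD4+Lrig1- point lies to the right for each gene.

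Transcript length moved with this difference. Among other genes the median log2 ratio of set 2 over set 1 was 0.57 below 500 bases, 1.07 from 500 to 1000, 0.67 from 1000 to 1500, 0.26 from 1500 to 2500, -0.05 from 2500 to 4000 and -0.69 from 4000 bases on. Spearman's rho with length was -0.45 across 16042 other genes and -0.25 across the 81 ribosomal protein genes, as a description. Ribosomal protein genes of the same lengths had medians of 1.49 (17 genes), 1.69 (43 genes), 1.38 (13 genes) and 1.54 (6 genes) in the first 4 classes. In each of these classes their median lay above the median of other genes, by the least in the class from 500 to 1000 bases. In the longer classes stood Rps20 alone with 1.49 and Rps15a alone with 2.05. On the log2(TPM + 1) scale, limma called 66 of the 81 genes higher, with a median of 0.82 beside -0.49 over all genes. Over all 16123 genes it called 865 higher and 6516 lower. When any 1 library was left out, 1 set held a single library. The median log2 difference of the 81 genes was then 1.52 to 1.71, beside -0.09 to 0.03 over all genes. The calls of edgeR did not hold in those fits, for these or any other genes. The marker sums of CD4 T, B, myeloid, erythroid, CD8 T and NK cells given above were also higher in set 2. The part of length and of these cells in the result was not tested, and the sets cannot be told apart from any batch that goes with them.

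**Figure D5:**
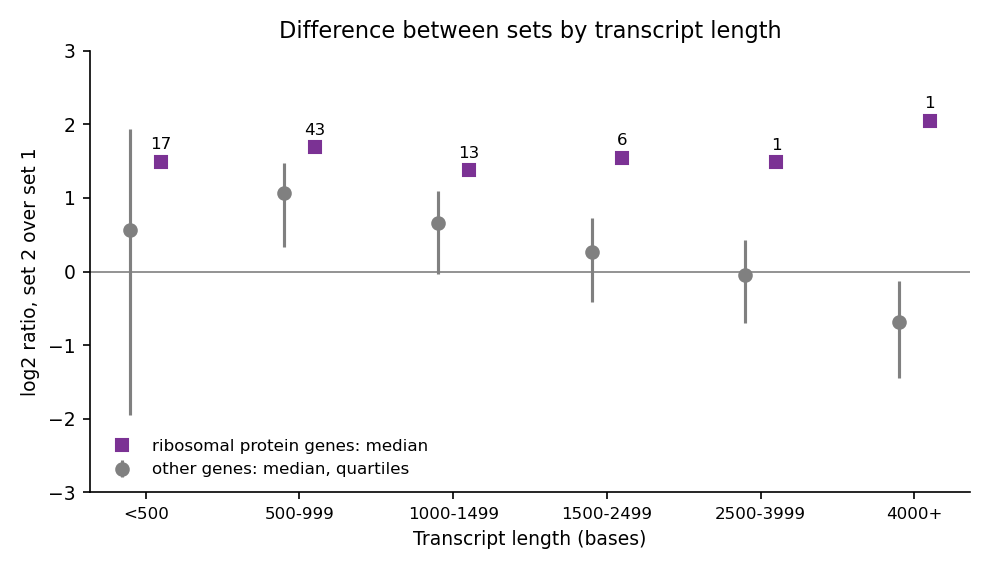
Median log2 ratio of set 2 over set 1 in classes of annotated transcript length (bases), grey circles with quartile bars for other genes and purple squares for ribosomal protein genes, with the number of the latter above each square. The medians of other genes fall from 1.07 at 500 to 1000 bases to -0.69 from 4000 bases on, while those of ribosomal protein genes lie between 1.38 and 2.05.

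Among genes that the symbol rule leaves out, most of those examined were also higher in set 2. Rps3a1 (log2 difference 1.69, adjusted p = 0.0117), the ubiquitin-like fusion Fau (1.60, adjusted p = 0.0105) and the scaffold protein Rack1 (1.29, adjusted p = 0.0123) were all higher in set 2 in edgeR's test. None of these 3 was called between the Lrig1 groups with the set as a term, with adjusted p from 0.319 (Rps3a1) to 0.822 (Fau). Among further paralogs, Rpl22l1 (2.12, adjusted p = 0.0107), Rpl36al (1.25, adjusted p = 0.0105) and Rpl7l1 (1.01, adjusted p = 0.0156) were higher in set 2 and were not called between the Lrig1 groups with the set as a term. Rps27rt, a retrocopy of Rps27, differed from these between the Lrig1 groups, and between sets in the test without the Lrig1 group as a term. It had 14.4 and 17.2 CPM in set 1 (CD4+Lrig1+, then CD4+Lrig1-) and 19.6 and 26.8 CPM in set 2, so the Lrig1 groups overlapped across sets. It was called lower in CD4+Lrig1+ T cells with the set as a term (-0.35, SE 0.10, adjusted p = 0.0414). Between sets it was not called in edgeR's test without the Lrig1 group as a term (0.55, adjusted p = 0.138). With that term it was called higher in set 2 (0.54, adjusted p = 0.00253). The counts of the lists that follow stand beside 16.3% of all genes called higher in set 2 and 18.8% called lower. Of 19 other TOP mRNAs, 16 were higher in set 2 and 0 lower, with a median of 1.30. They include Tpt1, an abundant growth-related protein, with 3183 and 3665 CPM in set 1 (CD4+Lrig1+, then CD4+Lrig1-) and 7322 and 10727 CPM in set 2. Of 38 translation factors, 26 were higher and 1 lower, with a median of 0.77. Some genes stand on both of these lists.

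Lists of genes that make or control ribosomes had calls in both directions, again beside 16.3% of all genes called higher and 18.8% lower. Of 38 ribosome biogenesis genes 9 were higher in set 2 and 4 lower (median 0.15), and of 21 genes of RNA polymerases I and III 4 were higher and 6 lower (median -0.11), shares that lie near those of all genes. Of 25 genes of mTORC1 and Myc control, 1 was higher and 10 were lower, with a median of -0.50. Mtor, the kinase of mTORC1, had 89.0 and 92.9 CPM in set 1 and 23.3 and 28.2 in set 2, a log2 difference of -1.82 (adjusted p = 0.0105). Larp1 had 248 and 248 CPM in set 1 and 111 and 115 in set 2, a log2 difference of -1.13 (adjusted p = 0.0105). Of 16 genes of ribosome quality control and nucleolar stress 4 were higher and 7 lower (median -0.54). Those higher include Rps27l (2.12, adjusted p = 0.0120), itself a ribosomal protein gene. Those lower include Zfp598, which marks collided ribosomes (-1.56, adjusted p = 0.0105). The median transcript length of these 4 lists was 2663, 3255, 2658 and 3374 bases, longer than the 734 bases of the ribosomal protein genes. It was 1541 bases for the other TOP mRNAs and 2423.5 bases for the translation factors, also longer. The part of length was not tested. Mitochondrial ribosomal proteins, with a median length of 1055 bases, were higher in set 2 in 64 of 81 genes and lower in 0 (median 1.00), and the ribosomal protein pseudogenes in 90 of 123 and 0 (median 1.76).

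Between the Lrig1 groups, with the set as a term, these counts are read against 14.6% of all genes called higher and 12.8% lower. Translation factors had 2 of 38 higher in CD4+Lrig1+ T cells and 2 lower, other TOP mRNAs 1 of 19 and 0, and ribosome biogenesis genes 4 of 38 and 2. Genes of RNA polymerases I and III had 1 of 21 higher and 6 lower, those of mTORC1 and Myc control 7 of 25 and 3, and those of quality control 1 of 16, which was Rps27l itself, and 2. Of 81 mitochondrial ribosomal protein genes 7 were higher and 0 lower, and of 123 pseudogenes 0 and 2. The mitochondrial genes with the smallest p were Mrps6 (log2 fold change 1.11, adjusted p = 0.000516), Mrpl52 (0.76, adjusted p = 0.000646) and Mrpl45 (0.64, adjusted p = 0.00211), of which Mrps6 is a small-subunit protein of the mitochondrial ribosome and the others belong to its large subunit. All 5 proliferation markers were called higher with Lrig1, with sums of 90.6 and 31.5 CPM in set 1 and 43.8 and 24.2 in set 2. Markers of resting and naive T cells were called lower in 6 of 6 genes, with sums of 2046 and 3320 CPM in set 1 and 2604 and 4999.9 in set 2.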

How the data were processed

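Reads of CD4+Lrig1+ and CD4+Lrig1- T cells were trimmed by the authors (Trimmomatic 0.38), mapped with HISAT2 2.1.0 and assembled with StringTie 2.1.3b. The submitters' processing notes also list Bowtie2 2.3.4.1 and the builds GRCm38 and mm10. The deposited estimated counts per transcript were whole numbers with no normalization. The deposited FPKM values were scaled by the authors to transcript length and library size, and the deposited TPM values to the same total in each library. The labels list 6 samples, of which 4 libraries were used. Another 6 per-sample columns, in a table of their own, hold counts, FPKM and TPM, with several columns a library, so they are not 6 further samples. They were left out: their names fit no group in the labels.

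Counts were summed per gene over 129299 transcripts, filtered with filterByExpr, scaled by TMM and tested with the quasi-likelihood test of edgeR 4.0.16 (R 4.3.3) at a Benjamini-Hochberg adjusted p under 0.05 over 16123 genes. CPM are counts scaled to library size after TMM, and log2 ratios used a prior count of 2. The procedure for the Lrig1 comparison was also run on simulated counts with known changes, with and without the set as a term. The run without that term simulated no difference between sets, unlike these data, so it cannot judge that fit here. Alternatives were other scalings and filters, DESeq2 1.42.0, limma 3.58.1 on log2 FPKM or TPM, a term for the other factor, other member lists, an adjusted p under 0.1 and leaving out each library. Tables were read with Python 3.11.15 and shares tested with scipy.

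The members and lists were chosen with earlier results of these data known. Members were named by rule: the 10 with the highest mean FPKM, the 5 highest and 5 lowest by fold change in each comparison, the 5 whose ratio moved most between sets, paralogs with their partners, the stalk genes and Rpsa, which gave 34, not all of them reported here. Outside the rule, Rps6, Rpl35 and Rpl28 are shown for sequence, and Rpl22, Rps15a, Rps20, Rpl36 and Rpl6l were named after their values were seen. Of 45777 genes, 45679 matched RefSeq genes of GRCm38 by gene ID.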

Additional observations from a re-analysis of the deposited data

Results flagged for a closer look

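The share of counts on ribosomal protein genes was higher in CD4+Lrig1+ than in CD4+Lrig1- T cells by 0.319 percentage points in set 1, and the difference was -1.56 percentage points in set 2. It was singled out because the Lrig1 comparison had opposite signs in the sets, and this difference was not tested, as each set holds 1 library of each group. The same holds for single genes. A log2 ratio above 0 in set 1 and below 0 in set 2 was found for 52 of 81, against 14.5% of all genes. This count was 42 with the size factors of DESeq2 and 44 with library totals alone, and it was not tested either.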

How the results depend on the processing

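No paired analysis was possible by replicate number, because the columns carry none. The fit with the set as a term compares the groups within sets, which pairs the libraries by deposited table. Between the Lrig1 groups, 0 ribosomal protein genes were called under every other scaling, filter, tool, threshold and member list tried. Of all genes 0 were called there as well, except by DESeq2 (275 higher and 43 lower). These settings therefore cannot show how stable the result is. With the set as a term 2 ribosomal protein genes were called higher, and that fit was not run under other scalings or filters. When 1 library was left out, the median log2 fold change of the ribosomal protein genes ranged from -1.03 to 1.04. It was 0.47 without CD4+Lrig1+ of set 1 and -1.03 without CD4+Lrig1+ of set 2. It was -0.71 without CD4+Lrig1- of set 1 and 1.04 without CD4+Lrig1- of set 2. The sets are then unequal in the groups. Between sets, the count called higher fell from 79 to 0 when any 1 library was left out (lowest 0, highest 0), with adjusted p of at least 0.0566, 0.0591, 0.0727 and 0.0979 and medians of 1.52 to 1.71. There the lone library of a set was assumed to vary like the others. Fewer libraries leave fewer degrees of freedom, and 0 of all genes were called as well. On log2(TPM + 1), added after seeing the data, the median between sets was 0.82, with 66 genes called. The ratio of the shares between sets was 1.79 by FPKM in place of 2.62. Over all genes, 2622 were higher and 3038 lower in set 2 with TMM, 1915 and 3823 with library totals, which moved the median of all genes from -0.02 to -0.21 and that of the ribosomal protein genes to 1.40, and 865 and 6516 on the TPM scale. Apart from these, the alternatives kept counts within 1.5 times the reported ones and medians within the spread between libraries. With 2 libraries a group, depth was not the limit for the ubiquitous genes, but Rps4l, Rpl32l and Rpl39l rest on few counts.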
